A study of Mus musculus with 10 samples.

Results

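The genes of oxidative phosphorylation, the respiratory chain and the ATP synthase, were followed by RNA-seq in mouse fibroblasts on their way to induced pluripotency. Members were taken by gene symbol: the protein genes of the mitochondrial genome, the Nduf, Sdh, Uqcr, Cox4 to Cox8 and Atp5 families and Cycs, each with a protein-coding transcript. This gave 98 of the 45706 genes quantified, of which 13 lie on the mitochondrial genome and 85 in the nucleus. The nuclear genes comprised 37 genes of complex I, 4 of complex II, 8 of complex III, 18 of complex IV, 15 of complex V, cytochrome c, and 2 genes named after the ATP synthase that are not classed here as subunits (Atp5s and Atp5sl). The 13 mitochondrial genes comprised 7 of complex I, 1 of complex III, 3 of complex IV and 2 of complex V. Apart from Atp5s and Atp5sl, genes were placed in complexes by symbol alone, whatever the complex in which the protein acts. This put Ndufa4 under complex I and Cox7a2l under complex IV.

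There were 5 groups of 2 libraries each. The mouse embryonic fibroblasts (MEF) had the strain label C57BL/6 x 129 and the genotype OKSM Col1a1/M2rtTA ROSA26, that is, a doxycycline-inducible cassette of the reprogramming factors Oct4, Klf4, Sox2 and c-Myc together with the activator that doxycycline switches on. They were unsorted and grew in fibroblast medium without doxycycline. Cells of the same genotype and strain were taken at day 3 (D3), day 6 (D6) and day 9 (D9) of culture. They grew in embryonic stem cell medium (15% serum and 1000 U/ml LIF) with doxycycline at 1 µg/ml and ascorbic acid at 50 µg/ml. The D3 cells were unsorted, and the D6 and D9 cells were sorted for the surface antigen SSEA1. The embryonic stem cells (ESC) were of the line V6.5, also labelled C57BL/6 x 129, without the cassette, and were grown unsorted on irradiated feeder cells in medium with 15% serum and 1000 U/ml LIF. Comparing D3 with MEF therefore changed factor induction, medium and ascorbic acid together. Comparing D6 with D3 changed time and sorting together, and the ESC differed from the other groups in genotype and line as well.

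Complexes I to IV of the inner mitochondrial membrane pass electrons from NADH and succinate to oxygen. Complexes I, III and IV also pump protons, and complex V, the ATP synthase, uses the proton gradient to make ATP. The mitochondrial genome encodes a small core of subunits of complexes I, III, IV and V, transcribed from each strand as long precursors that are cut at tRNAs. All other subunits, including all of complex II, are encoded in the nucleus and imported. Pluripotent cells are known for relying heavily on glycolysis, and reprogramming fibroblasts are known for a shift away from oxidative metabolism.

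Mitochondrial genes overlap each other and have copies in the nuclear genome, which bears on how their reads were divided. The 43 bases shared by mt-Atp8 and mt-Atp6 (GRCm38 M:7927-7969, plus strand) belong to the coding sequence of both genes. A 50-base read inside mt-Nd3 (GRCm38 M:9459-9806, plus strand) has a near-exact counterpart in the pseudogene Gm28438 on chromosome 1. Of the 345 bases compared, 1 differed, the substitution T3C counted from the 5′ end of mt-Nd3. The stretches below run from that end, M:9459-9538 on the plus strand for mt-Nd3 and chr1:24613040-24613119 on the minus strand for the copy, and the capital marks the substituted base.
mt-Atp8 and mt-Atp6 overlap: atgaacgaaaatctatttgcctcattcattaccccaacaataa
mt-Nd3: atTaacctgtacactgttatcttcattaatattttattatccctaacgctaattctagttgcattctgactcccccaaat
Gm28438: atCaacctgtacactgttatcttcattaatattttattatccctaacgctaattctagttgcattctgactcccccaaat

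Nuclear members were matched to RefSeq promoters (GRCm38.p6, 250 bases before to 50 bases after the start), and 71 of the 85 had an entry, with 77 promoters in all. The binding motif of NRF1, a factor known for controlling respiratory genes, was searched as GCGCATGCG on both strands and was present in 9 of the 77 promoters (11.7%), compared with 1.75% of all 32851 promoters. The YY1 motif AAGATGGCG was present in 9 (11.7%, compared with 1.4%), and the ETS motif CCGGAAGT in 5 (6.5%, compared with 3.89%). The promoter of Cycs (cytochrome c, chr6:50566520-50566819, minus strand) is shown as an example with the NRF1 motif in capitals, here as the reverse complement of the letters searched. The promoters of Cox6b2 (chr7:4753045-4753344, minus strand) and Cox6b1 (chr7:30626065-30626364, minus strand) are shown because these alternative forms of a complex IV subunit had unlike expression, and neither window held any of the motifs.
Cycs: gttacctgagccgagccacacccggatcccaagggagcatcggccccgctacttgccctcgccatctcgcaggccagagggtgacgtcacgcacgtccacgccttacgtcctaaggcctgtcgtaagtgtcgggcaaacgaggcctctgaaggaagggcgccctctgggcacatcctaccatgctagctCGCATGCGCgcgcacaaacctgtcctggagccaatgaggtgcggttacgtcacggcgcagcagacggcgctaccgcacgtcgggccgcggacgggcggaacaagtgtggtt
Cox6b2: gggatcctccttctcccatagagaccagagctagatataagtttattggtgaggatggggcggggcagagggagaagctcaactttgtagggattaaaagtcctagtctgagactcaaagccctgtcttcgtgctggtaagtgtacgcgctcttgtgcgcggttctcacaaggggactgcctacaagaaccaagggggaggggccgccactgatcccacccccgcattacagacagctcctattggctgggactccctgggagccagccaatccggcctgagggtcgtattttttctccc
Cox6b1: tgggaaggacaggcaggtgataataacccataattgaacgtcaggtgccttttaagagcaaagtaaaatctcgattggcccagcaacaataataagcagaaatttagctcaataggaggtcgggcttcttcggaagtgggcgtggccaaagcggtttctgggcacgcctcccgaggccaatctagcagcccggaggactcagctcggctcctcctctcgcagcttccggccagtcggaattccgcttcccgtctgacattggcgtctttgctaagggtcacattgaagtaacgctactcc

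Each library held between 29585876 and 38275024 estimated reads, with 16137 to 18522 genes at 10 reads or more. Fibroblast marker genes took 4.11% of reads in MEF, 0.358% at D3, 0.0159% at D6, 0.0071% at D9 and 0.460% in ESC, and pluripotency marker genes took 0.0004%, 0.0234%, 0.0451%, 0.0651% and 0.550%. Taken as sums, these shares followed the labels, and the ESC libraries also held fibroblast marker reads, in cultures grown on feeder cells. The pluripotency list includes Pou5f1 (Oct4), a factor of the induced cassette, so its sum cannot tell the cassette from the cells' own genes. At D3 against MEF 2 of its 8 genes were higher by 2-fold (background 14.6%) and 1 lower (background 14.5%). At D9 against MEF all 8 were higher by 2-fold (background 24.1%). In bulk samples, fewer cells of a type and less RNA per cell cannot be told apart. The series calls its samples biological replicates and does not say which came from separate cultures or animals, so the p-values below measure only the spread between these libraries, which may be technical. With 2 libraries a group an exact permutation test cannot go below p = 0.333, so tests rest on edgeR's quasi-likelihood fit across the 20165 genes with enough reads. Of the members, 95 entered that fit, all 13 mitochondrial and 82 nuclear. The other 3 (Cox7b2, Cox8b and Cox8c) were left out for too few reads.

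The mitochondrial genes rose at day 9 and were lower again in ESC, while the nuclear genes as a set differed little from D6 onward. The 13 mitochondrial genes together took 1.92% and 1.96% of all reads in the MEF libraries, 2.41% and 2.47% at D3, 2.98% and 3.07% at D6, 5.19% and 4.87% at D9, and 2.78% and 2.73% in ESC. The D9 libraries were above all others, and no pair of groups overlapped. The 85 nuclear genes took 0.685% and 0.698% in MEF, 0.918% and 0.874% at D3, 0.982% and 1.00% at D6, 0.985% and 0.994% at D9, and 1.06% and 1.09% in ESC. Here D6 and D9 overlapped, MEF were lowest and ESC highest. Mitochondrial reads per nuclear read, a ratio that does not depend on scaling between libraries, averaged 2.81 ± 0.0014 in MEF, 2.72 ± 0.146 at D3, 3.05 ± 0.0212 at D6, 5.09 ± 0.261 at D9 and 2.57 ± 0.0725 in ESC (SD, n = 2). The D9 ratio exceeded every other group by more than the replicate spread, and MEF and D3 did not differ beyond it.

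**Figure D1:**
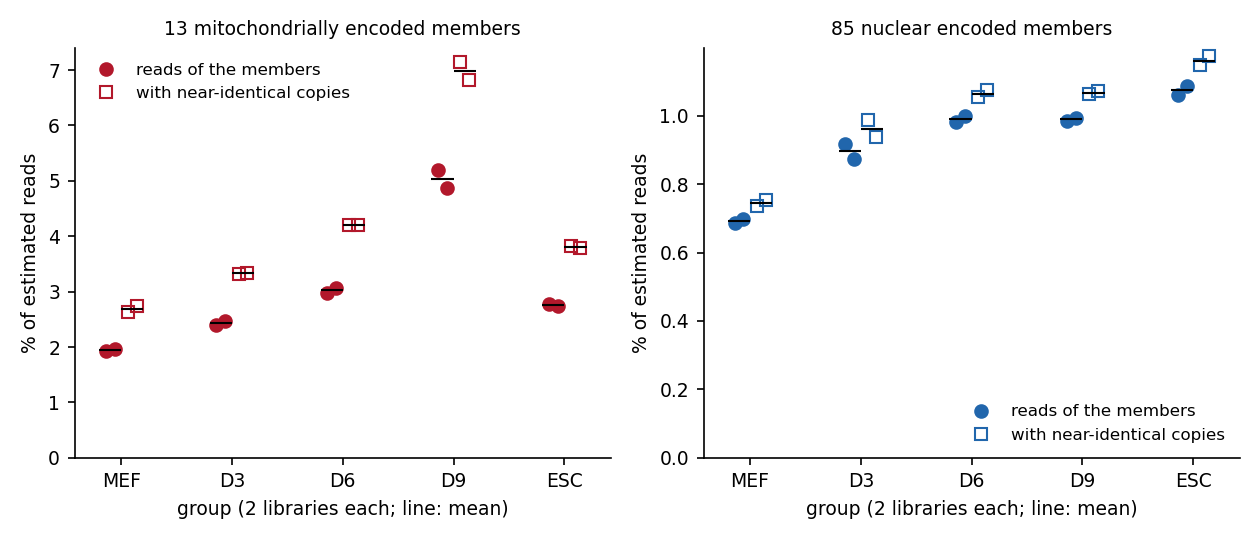
Percent of all estimated reads taken by the 13 mitochondrial genes (left) and the 85 nuclear genes (right) in each of the 10 libraries; filled points are the reads of the genes themselves, open squares those with near-identical copies added (described further on), and lines are group means. The mitochondrial share is highest in both D9 libraries, and the nuclear share of D6 and D9 is the same within the spread.

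Gene by gene, the sequence of comparisons gave the same order. Between D9 and D6, both sorted, all 13 mitochondrial genes rose at an adjusted p under 0.05, compared with 15.7% of all genes tested, and none fell (background 18.9%). Their log2 fold changes ran from 0.49 for mt-Nd5 to 0.96 for mt-Co2, with a median of 0.66, so none reached 2-fold (backgrounds 5.18% higher and 2.68% lower). Over the same step 10 of the 82 nuclear genes rose and 10 fell, with a median of 0.03 (all genes 0). That split depends on the processing, with 18 higher and 8 lower under a filter of 10 CPM and 2 higher and 18 lower with limma on log2(TPM + 1), while the 13 mitochondrial genes rose under each. The medians of the mitochondrial and nuclear genes differed by 0.63 on the log2 scale, against a replicate SD of that difference of 0.30.

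Between ESC and D9 all 13 mitochondrial genes fell (background 33.5%), and 5 of them by 2-fold or more (background 14.3%). Their median log2 fold change was -0.91, compared with -0.01 for the nuclear genes, of which 26 rose (background 36.1%) and 30 fell. The nuclear split turned to 29 higher and 21 lower under DESeq2, 31 and 23 under RLE, and 41 and 19 with limma on log2(TPM + 1), where 11 of the mitochondrial genes fell and 4 of them by 2-fold. The difference of medians was -0.90 (replicate SD 0.23). The groups differ in line, genotype, doxycycline, ascorbic acid and sorting, and the ESC grew on feeder cells, and these cannot be told apart in this comparison.

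Against MEF, D9 cells had all 13 mitochondrial genes higher (background 41.7%), 11 of them by 2-fold or more (background 24.1%). The median was 1.11 for mitochondrial and 0.23 for nuclear genes, where 51 rose and 13 fell (background 33.1%). ESC against MEF gave 7 mitochondrial genes higher (background 40.4%) and 1 lower (background 36.2%), with a median of 0.09. That split was 4 and 3 under DESeq2, 5 and 3 under RLE and 12 and 0 without TMM. It was 9 and 0 with the reads of near-identical copies added (described further on). The nuclear median was 0.22, with 51 genes higher and 17 lower. In ESC the mitochondrial median was thus below the nuclear by 0.13 (replicate SD 0.04), the opposite order to D9, but the difference was -0.04 without ESC replicate 2 and -0.06 without MEF replicate 1. The 11 mitochondrial genes past 2-fold at D9 became 6 under DESeq2 and under RLE scaling and 11 without TMM, and the genes higher at any fold were 11 under DESeq2 and RLE and 13 without TMM.

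Before day 9 the mitochondrial genes moved less, and at D3 not together. At D3 against MEF 6 rose (background 35.4%) and 3 fell (background 29.5%), and at D6 against D3 9 rose (background 29.2%) and 1 fell (background 27.3%). The medians at these steps were 0.19 and 0.18, compared with 0.17 and 0.03 for the nuclear genes. The differences of medians, 0.02 and 0.15, lay within the replicate SDs of 0.11 and 0.23. The D3 split depends on scaling, with 4 higher and 4 lower under RLE and 10 higher and 2 lower without TMM. With the reads of near-identical copies added (described further on), 8 rose and 4 fell at D3, and 12 rose and 1 fell at D6. The medians were then 0.141 and 0.221, compared with 0.175 and 0.024 for the nuclear genes.

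mt-Cytb, the mitochondrially encoded subunit of complex III (M:14145-15288, plus strand), gave 2568 and 2697 CPM (read counts scaled to library size, with TMM factors) in MEF, 3072 and 2950 at D3, 3493 and 3452 at D6, 6261 and 6026 at D9, and 2729 and 2753 in ESC. The D9 libraries were far above the rest, and the ESC libraries stood just above those of MEF. Its log2 fold change was 1.22 ± 0.03 (SE, adjusted p = 1.1e-13) for D9 against MEF and -1.16 ± 0.03 (adjusted p = 3.9e-13) for ESC against D9.

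mt-Co1, the catalytic core of complex IV (M:5328-6872, plus strand), had 6679 and 6857 CPM in MEF, 6862 and 7132 at D3, 9235 and 9190 at D6, 15020 and 14250 at D9, and 8208 and 8151 in ESC. D3 against MEF did not pass the test (log2 0.05 ± 0.03, adjusted p = 0.18) but did with the reads of near-identical copies added (0.14 ± 0.03, adjusted p = 0.00018), and D9 was highest, at 1.11 ± 0.03 over MEF (adjusted p = 1.4e-13). mt-Nd2, a membrane subunit of complex I (M:3914-4951, plus strand), had 1361 and 1437 CPM in MEF, 1951 and 1911 at D3, 2255 and 2247 at D6, 3407 and 3361 at D9, and 1508 and 1477 in ESC. It rose at each step to D9 and was 1.27 ± 0.03 above MEF there (adjusted p = 4.1e-14).

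mt-Nd1, another membrane subunit of complex I (M:2751-3707, plus strand), went down before it went up. It had 2067 and 2139 CPM in MEF, 1426 and 1453 at D3, 2358 and 2335 at D6, 4385 and 4208 at D9, and 2364 and 2335 in ESC. The D3 libraries were lowest, with a log2 fold change of -0.55 ± 0.03 against MEF (adjusted p = 7.1e-10), and D6 was 0.71 ± 0.03 above D3 (adjusted p = 7.6e-11). mt-Nd1 lies next to the mitochondrial ribosomal RNA genes, whose reads were also lowest at D3: mt-Rnr2 had 643 and 667 CPM in MEF, 245 and 308 at D3, 365 and 338 at D6, 531 and 518 at D9, and 381 in both ESC libraries. The libraries were made by selecting polyadenylated RNA, and whether the 2 patterns are related was not tested.

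mt-Nd5 and mt-Nd6, complex I subunits whose genes are neighbours, stood apart from the other 11. mt-Nd5 (M:11742-13565, plus strand) had 1574 and 1652 CPM in MEF, 1147 and 1289 at D3, 1336 and 1314 at D6, 1879 and 1836 at D9, and 1519 and 1505 in ESC. mt-Nd6, alone among the mitochondrial protein genes in being read from the minus strand (M:13552-14070), had 522 and 539 CPM in MEF, 472 and 458 at D3, 394 and 389.6 at D6, 564 and 586 at D9, and 465 and 524 in ESC. In both genes D9 was highest, but their log2 fold changes against MEF were 0.20 ± 0.04 (adjusted p = 0.00084) and 0.12 ± 0.05 (adjusted p = 0.033), while the other 11 ran from 1.03 to 1.5. With scaling the second of these turned sign (-0.03 under RLE, 0.41 without TMM), and the first stayed above 0. The exons of the pair overlap by 14 bases on opposite strands. The strand setting used in counting is not given in the sources used here. Whether the selection of polyadenylated RNA bears on the reads of mt-Nd5 and mt-Nd6 was not tested either.

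**Figure D2:**
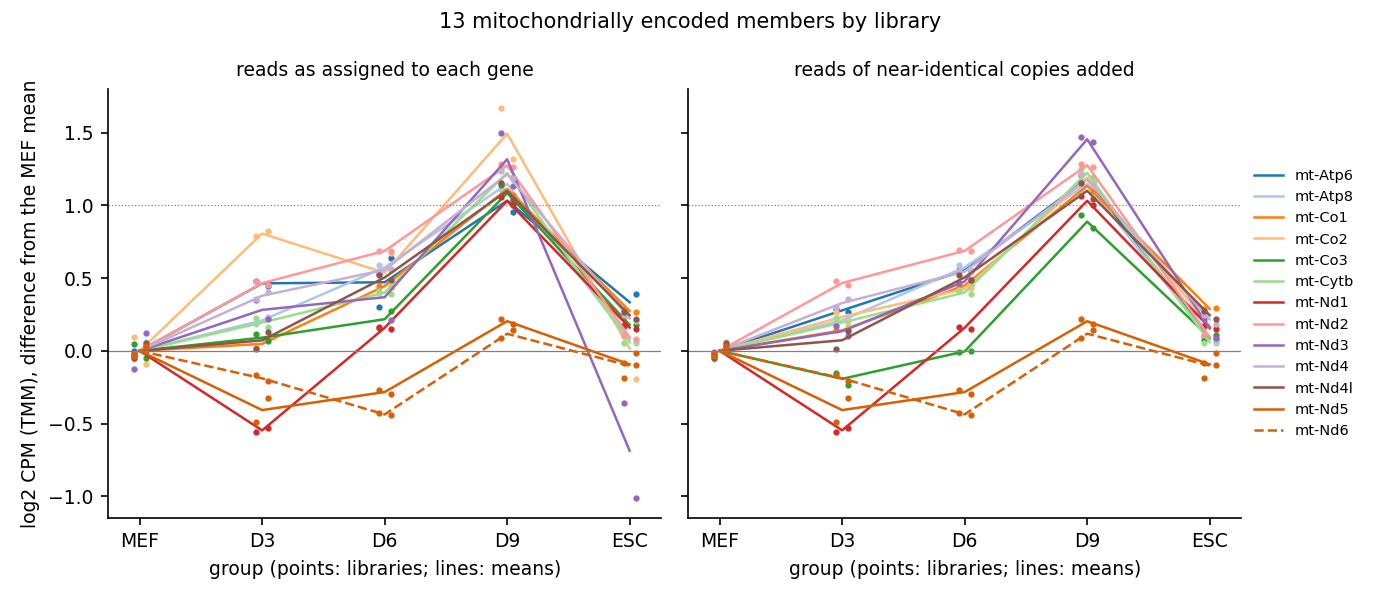
Log2 CPM of each of the 13 mitochondrial protein genes less its own MEF mean, by group, as listed for the gene (left) and with the reads of near-identical copies added (right); points are libraries. The lines join group means, and ESC are a separate cell line and not a later time. On the left 11 genes are above 1 at D9, while mt-Nd5 and mt-Nd6 stay close to 0.

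On the scale per transcript length, mt-Atp8, a short subunit of the ATP synthase (M:7766-7969, plus strand), was listed far above the rest, at 18314 to 40555 TPM over the 10 libraries. The next highest, mt-Co1, ranged from 2385 to 5071 TPM. The mt-Atp8 transcript is 204 bases long, of which 43 are shared with mt-Atp6, and so its TPM rests on a short length. Its change was like that of its neighbours, with a log2 fold change of 1.15 ± 0.04 for D9 against MEF (adjusted p = 3.3e-12).

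Part of the reads of many members was assigned to near-identical copies elsewhere in the genome. By alignment of GENCODE M21 transcripts on GRCm38 (at least 95% identity over at least 150 bases and 80% of the copy), 32 members had 53 copies, 9 of them mitochondrial genes with 11 copies. A cluster on the minus strand of chromosome 1 holds copies of 7 mitochondrial genes, among them Gm10925, identical to mt-Atp6 over 678 bases (chr1:24613974-24614651). The share of reads listed under the copies had a median over libraries of 70.6% for mt-Co2 (58.8% to 79.2%), 70.0% for mt-Nd3 (65.1% to 85.6%), 67.1% for mt-Atp6 (60.7% to 73.4%), 28.2% for mt-Co1 and 13.6% for mt-Co3. Copies so alike cannot be told apart by 50-base reads, and the levels of these genes alone are uncertain.

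With the reads of the copies added, the standard errors of mt-Nd3, mt-Co2 and mt-Atp6 became smaller and the rise at D9 stayed. mt-Nd3 alone had 84.2 and 99.7 CPM in MEF, 117 and 106 at D3, 132 and 106 at D6, 259 and 201 at D9, and 71.4 and 45.4 in ESC. With its copies it had 295 and 299 CPM in MEF, 334 and 318 at D3, 411 and 415 at D6, 822 and 804 at D9, and 346 and 315 in ESC. D9 was highest in either form, but ESC were below MEF only without the copies. The ESC to MEF log2 fold change of mt-Nd3 was -0.66 ± 0.17 alone (adjusted p = 0.0033) and 0.15 ± 0.04 with copies (adjusted p = 0.0037), so its sign is not settled here.

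For mt-Co2, a copper-binding subunit of complex IV (M:7013-7696, plus strand), the sum with copies was 3305 and 3403 CPM in MEF, 4031 and 3856 at D3, 4482 and 4522 at D6, 7782 and 7531 at D9, and 3794 and 3771 in ESC. At D3 against MEF the log2 fold change was 0.80 ± 0.13 alone and 0.23 ± 0.03 with copies. For D9 against MEF it was 1.5 ± 0.13 alone (adjusted p = 7.6e-08) and 1.19 ± 0.03 with copies (adjusted p = 2.6e-14). For mt-Atp6, the membrane subunit through which protons enter the ATP synthase (M:7927-8607, plus strand), ESC against D9 gave -0.70 alone, short of 2-fold, and -1.10 ± 0.03 with copies. mt-Co3, another core subunit of complex IV (M:8607-9390, plus strand), was above 2-fold at D9 against MEF alone (1.08) and not with copies (0.89). With copies, the 13 genes together took a mean of 2.69% of reads in MEF, 3.33% at D3, 4.21% at D6, 6.98% at D9 and 3.80% in ESC. The D9 mean was 2.597 times that of MEF with copies and 2.595 times without.

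**Figure D3:**
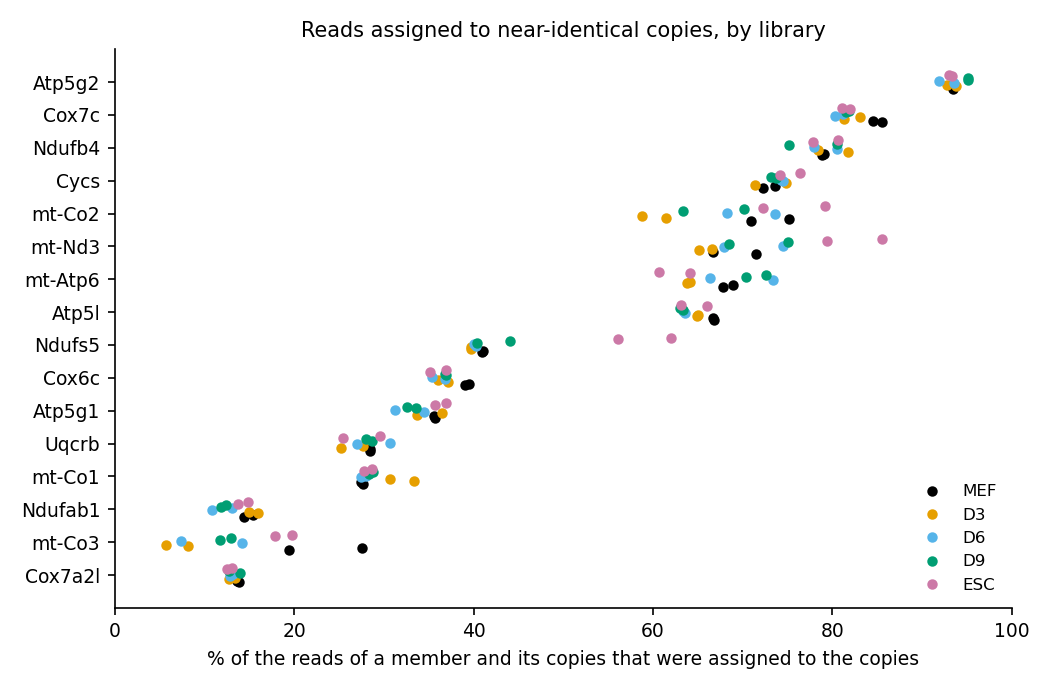
Share of reads of a member plus its copies that were listed under the copies, in percent, for the members over 10% in the median library; points are the 10 libraries, coloured by group. Atp5g2 (91.9% to 95.1%), Cox7c, Ndufb4, Cycs, mt-Co2, mt-Nd3, mt-Atp6 and Atp5l have most of their reads on copies in the median library.

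Among the nuclear members most genes moved little. The highest group mean was under 1.5 times the lowest for 55 of 82 genes, from 1.5 to 2 times for 17 and 2 times or more for 10, with a median of 1.39. The same ratio had a median of 2.21 for the mitochondrial genes, of which 11 of 13 were at 2 or more. The 2-fold calls of the nuclear genes were fewer than the background in each comparison. D3 against MEF gave 2 higher (background 14.6%) and 4 lower (background 14.5%). D6 against D3 gave 1 higher (background 9.26%) and 1 lower (background 10.2%), and D9 against D6 gave none in either direction by edgeR or DESeq2 (also 0 higher and 0 lower by edgeR at an unadjusted p under 0.05). ESC against D9 gave 3 higher (background 18.6%) and 2 lower, D9 against MEF gave 2 higher and 3 lower (background 19.8%), and ESC against MEF gave 5 higher (background 25.5%) and 2 lower (background 20.6%).

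Small changes were common. At any fold, D3 against MEF gave 48 nuclear genes higher and 12 lower, a share of higher calls above the background of 35.4% and of lower calls below that of 29.5%. That split rests partly on scaling, with 32 higher and 21 lower under RLE and 67 higher and 7 lower without TMM. The TMM factors of the MEF libraries (0.857) were below those of ESC (1.08 to 1.09), and leaving TMM out moved the median of all genes by 0.29 for D3 against MEF, 0.48 for D9 against MEF and 0.44 for ESC against MEF. In each of these comparisons with MEF, 26 members that passed the test under some scaling turned direction between scalings, none with a log2 fold change above 0.29 in size. For D9 against D6 and for ESC against D9, no member turned. Exons of 26 nuclear members overlap those of other genes, 24 of them on the opposite strand, and without the strand setting of the counting such reads cannot be assigned with certainty. Cox6b2, Cox4i2, Cox7a1, Ndufa12 and Ndufv3 have no such overlap, while Cox4i1, Cox5a, Cox6a2, Ndufb8 and Ndufs6 do.

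**Figure D4:**
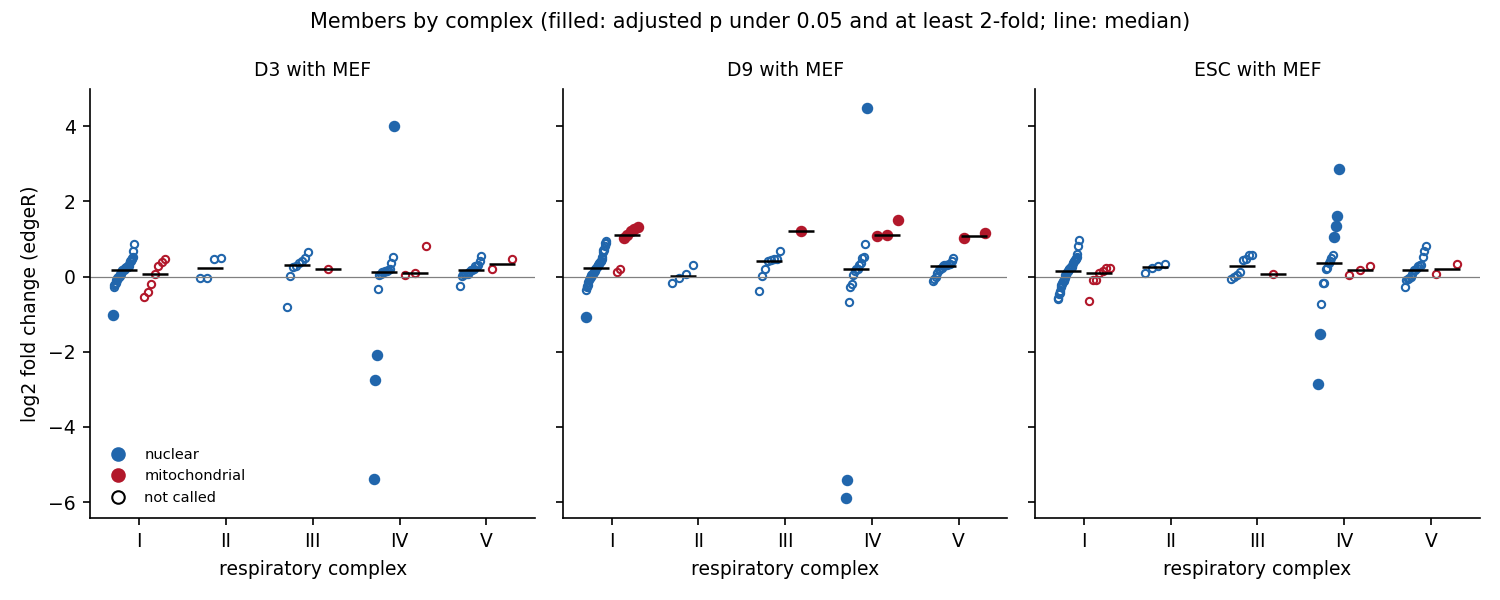
Log2 fold changes (edgeR) against MEF of the members tested, by complex, for D3, D9 and ESC; filled points passed an adjusted p of 0.05 and 2-fold, and lines are medians. Cycs, Atp5s and Atp5sl are not drawn. The mitochondrial genes stand above 1 as a group only at D9, and the farthest nuclear points are those of complex IV, of which the lowest (Cox6a2) rests on almost no reads and has no exact position.

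Complex I takes electrons from NADH, and its 37 nuclear genes took 0.189% of reads in MEF, 0.244% at D3, 0.262% at D6, 0.270% at D9 and 0.266% in ESC. At D3 against MEF 22 rose and 5 fell (backgrounds 35.4% and 29.5%), with a median log2 fold change of 0.18. The largest rise was that of Ndufb8, an accessory subunit, at 0.86 ± 0.04 (adjusted p = 1e-10). It had 225 and 232 TPM in MEF, 426 and 428 at D3, 471 and 442 at D6, 439.7 and 419.9 at D9, and 348 and 339 in ESC, so every reprogramming library was above every MEF and ESC library.

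Ndufv3, an accessory subunit of the NADH-binding module (chromosome 17, 31520115 to 31531331, plus strand), was the complex I gene that fell by 2-fold against MEF. It had 105 and 113 TPM in MEF, 50.1 and 47.2 at D3, 41.0 and 38.8 at D6, 40.5 and 42.5 at D9, and 91.5 and 95.7 in ESC. The 3 reprogramming groups were all low and did not overlap MEF or ESC. The log2 fold change was -1.01 ± 0.05 for D3 against MEF (adjusted p = 4.5e-10) and 0.61 ± 0.05 for ESC against D9 (adjusted p = 1.5e-07). Without MEF replicate 2 or D3 replicate 2 the D3 value was just short of 2-fold, still with an adjusted p under 0.05.

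Ndufa12, another accessory subunit (chromosome 10, 94198720 to 94221443, plus strand), had the reverse shape. It had 247 and 225 TPM in MEF, 373 and 378 at D3, 435 and 456 at D6, 415 and 426 at D9, and 212 and 219.6 in ESC. ESC against D9 gave -1.52 ± 0.05 (adjusted p = 1.6e-12). Its pseudogene Gm15920 (99.5% identical over 402 bases, chromosome 5, 130188395 to 130188796) took 38.1% and 34.0% of the joint reads in ESC, compared with a median of 6.20% over all libraries. With those reads added, the value was -0.94 ± 0.04 (adjusted p = 1.1e-10), still lower but short of 2-fold, and ESC against MEF went from -0.58 to -0.04.

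Of the remaining complex I genes, Ndufa7 was 0.98 ± 0.04 higher in ESC than in MEF (adjusted p = 2.8e-11), and Ndufs6, a subunit of the arm that holds the iron-sulphur clusters, was 0.88 ± 0.05 higher at D9 than in MEF (adjusted p = 7e-10). Ndufs6 had 52.5 and 50.3 TPM in MEF, 64.1 and 61.9 at D3, 81.0 and 80.04 at D6, 90.1 and 90.8 at D9, and 93.3 and 97.1 in ESC. It rose at each of the 3 steps to D9 and did not change from there to ESC by the test (log2 -0.07, adjusted p = 0.23). Ndufs5 moved from -0.59 to -0.06 for ESC against MEF when the reads of its copies, 40.7% of the joint reads in the median library, were added. Ndufab1, the acyl carrier protein, rose by 0.45 ± 0.04 at D6 against D3 (adjusted p = 8.4e-08), where Ndufa13 fell by 0.28 (SE 0.05, adjusted p = 0.00023). Ndufa8 fell by 0.59 in ESC against D9 (SE 0.05, adjusted p = 9.5e-08), and Ndufa2 by 0.35 at D9 against MEF (SE 0.05, adjusted p = 2.6e-05). By mean TPM, Ndufa10 was the highest nuclear gene of the complex at 492 and Ndufa11 the lowest at 12.7.

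Complex II, succinate dehydrogenase, links the chain with the citric acid cycle and has 4 subunits, all nuclear. The genes of its membrane anchor rose at D3 against MEF, Sdhc by 0.47 ± 0.04 (adjusted p = 9.4e-08) and Sdhd by 0.50 ± 0.04 (adjusted p = 2e-08). The genes of its catalytic part did not pass the test there, at -0.04 for Sdha, the flavoprotein, and -0.03 for Sdhb, the iron-sulphur protein, and both signs turn without TMM (0.17 and 0.18). Sdhd had 37.4 and 37.7 TPM in MEF, 53.8 and 54.3 at D3, 52.2 and 51.9 at D6, 44.1 and 44.8 at D9, and 49.8 and 50.5 in ESC, with MEF below all other libraries. At D9 against D6, 3 of the 4 fell (Sdha, Sdhc and Sdhd, by 0.14 to 0.18, background 18.9%). In ESC against MEF all 4 rose (background 40.4%), by 0.10 to 0.34 on the log2 scale, with a median of 0.25. The smallest of these was Sdhb at 0.10 ± 0.04 (adjusted p = 0.043).

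Complex III passes electrons to cytochrome c, and 6 of its 8 nuclear genes rose and 1 fell at D3 against MEF (backgrounds 35.4% and 29.5%). Uqcrh, the hinge protein, rose by 0.65 ± 0.05 (adjusted p = 2.1e-08), from 214 and 221 TPM in MEF to 359 and 332 at D3. It then had 329 and 342 TPM at D6, 281 and 272 at D9, and 223 and 218 in ESC, where it was back in the range of MEF. Uqcrq, a small membrane subunit, went the other way, with 323 TPM in both MEF libraries, 191 and 182 at D3, 222 and 221 at D6, 236 and 238 at D9, and 344 in both ESC libraries. It fell by 0.82 on the log2 scale at D3 (SE 0.04, adjusted p = 4.1e-10) and did not differ between ESC and MEF by the test (log2 0.00, adjusted p = 0.94). In ESC against D9, 3 of the 8 genes rose and 4 fell (backgrounds 36.1% and 33.5%). Uqcrb had the largest fall of the complex at D6 against D3, 0.27 alone and 0.22 with the reads of its copies. By mean TPM, Uqcrh was the highest of the complex at 279 and Uqcrfs1, the iron-sulphur protein, the lowest at 40.1.

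Cycs, cytochrome c, the mobile electron carrier between complexes III and IV, had a dip at D3. Its level was low, 4.61 and 4.57 TPM in MEF, 3.57 and 2.93 at D3, 4.37 and 4.62 at D6, 4.98 and 4.91 at D9, and 5.97 and 4.995 in ESC, and 71.4% to 76.4% of the joint reads were listed under its copies. The log2 fold change at D3 was -0.52 ± 0.08 alone (adjusted p = 5.1e-05) and -0.51 ± 0.04 with copies (adjusted p = 2.6e-08). The return at D6 was 0.51 ± 0.08 alone and 0.58 ± 0.04 with copies.

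Complex IV, cytochrome c oxidase, has several nuclear subunits that exist in alternative forms, and these forms gave the largest changes of any nuclear members. The sum of its 18 nuclear genes was 0.118% of reads in MEF, 0.154% at D3, 0.163% at D6, 0.169% at D9 and 0.179% in ESC. Cox6b2, known as the testis form of subunit VIb (chromosome 7, 4751792 to 4753094, minus strand), had 13.7 and 12.1 TPM in MEF, 209 and 200.3 at D3, 270.1 and 273 at D6, 259.9 and 261 at D9, and 97.4 and 94.1 in ESC. MEF were lowest and D6 and D9 highest, with ESC between them. The log2 fold changes were 4.00 ± 0.07 for D3 against MEF (adjusted p = 1.4e-15), 0.42 ± 0.04 for D6 against D3 (adjusted p = 9.3e-07) and -1.60 ± 0.05 for ESC against D9 (adjusted p = 5.2e-13). Its widely expressed counterpart Cox6b1 stayed between 208 and 280.3 TPM in the 10 libraries and changed by at most 0.38 in size in any comparison. From D6 on, Cox6b2 thus stood at or above Cox6b1 per length, and in MEF, D3 and ESC below it.

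Cox4i2, the form of subunit IV known from lung and from low oxygen (chromosome 2, 152754173 to 152765037, plus strand), went down with reprogramming. It had 9.37 and 9.65 TPM in MEF, 2.29 and 2.24 at D3, 0.29 and 0.47 at D6, 0.32 and 0.11 at D9, and 1.48 and 1.29 in ESC, from 262 and 334 reads in MEF to 11 and 5 at D9. The log2 fold change was -2.09 ± 0.23 at D3 (adjusted p = 1.6e-06) and -5.42 ± 0.31 for D9 against MEF (adjusted p = 8.3e-10). The 5 to 16 reads a library at D6 and D9 set the precision of the second value. In ESC it was 2.56 ± 0.36 above D9 (adjusted p = 2.2e-05), where fibroblast markers were also higher than at D9, 0.460% of reads compared with 0.0071%. Whether feeder cells supplied these reads was not tested. Cox4i1, the general form, had 499 to 578 TPM in all libraries from MEF to D9 and 704 and 747 in ESC, a rise of 0.38 ± 0.05 over D9 (adjusted p = 1.2e-05).

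Cox7a1, the heart and muscle form of subunit VIIa (chromosome 7, 30184144 to 30186078, plus strand), had 5.80 and 8.65 TPM in MEF, 1.18 and 0.98 at D3, 4.04 and 3.15 at D6, 5.26 and 3.43 at D9, and 24.4 and 22.3 in ESC. D3 was lowest and ESC highest, and D6 and D9 overlapped. It fell by 2.76 at D3 (SE 0.36, adjusted p = 8.5e-06), rose by 1.73 ± 0.38 at D6 (adjusted p = 0.0014) and by 2.29 ± 0.27 from D9 to ESC (adjusted p = 3.8e-06). The reads behind it were few, from 8 and 11 at D3 to 195 and 200 in ESC. Of the 2 related genes, Cox7a2, the general form, rose by 0.51 ± 0.06 at D9 against MEF (adjusted p = 4.6e-06). Cox7a2l, known for its part in respiratory supercomplexes, fell by 0.74 in ESC against MEF (SE 0.05, adjusted p = 3.3e-09), from 109 and 106 TPM to 67.2 and 68.8.

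Cox6a2, the heart and muscle form of subunit VIa (chromosome 7, 128205435 to 128206387, minus strand), had 51 and 64 reads in MEF, 1 and 2 at D3, 0 in both libraries at D6, 2 and 0 at D9, and 18 and 30 in ESC. It was called lower at D3 (adjusted p = 8e-06) and higher in ESC than at D9 (adjusted p = 0.0002), and no fold is given, since most libraries are at the floor. The muscle marker genes fixed for comparison took 0.0116% of reads in MEF, 0.001% at D3, 0.0007% at D6, 0.0014% at D9 and 0.0166% in ESC. In ESC, these were mostly Mylpf (1180 and 1161 TPM), with Myod1 at no more than 0.11 TPM and Ckm at no more than 0.14. Their part in the levels of Cox6a2 and Cox7a1 was not tested. Cox6a1, the general form, had 179 to 235 TPM in all libraries. The remaining tissue forms were barely present: Cox8b had 0 to 2 reads a library, Cox7b2 0 to 10 and Cox8c 0 to 13, with 13 and 8 in ESC.

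**Figure D5:**
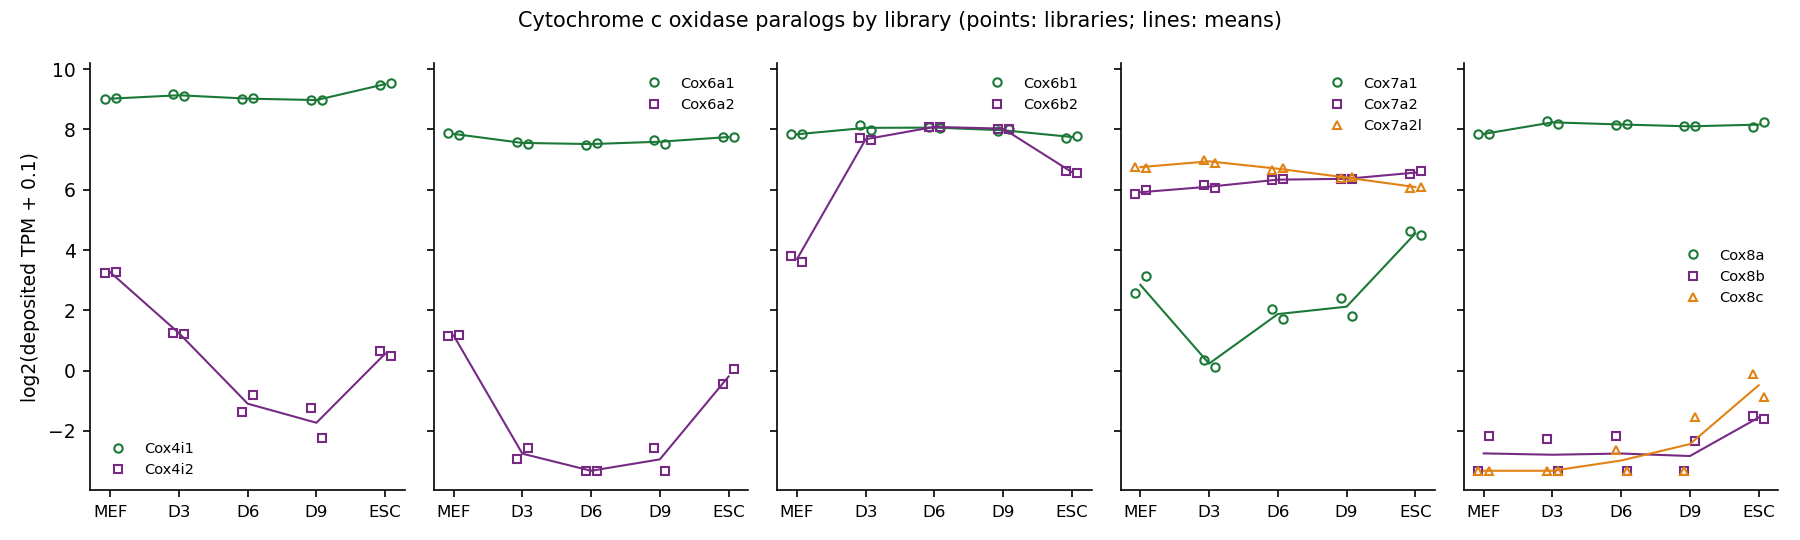
Deposited TPM of alternative forms of complex IV subunits as log2(TPM + 0.1), by group; points are libraries and lines are means. Cox6b2 climbs to the level of Cox6b1 by D6 while Cox6b1 stays level, Cox4i2, Cox6a2 and Cox7a1 are lower at D3 than in MEF, and Cox8b and Cox8c stay near the bottom of the scale.

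Of the complex IV genes with no alternative form, 2 were called at 2-fold, both in ESC against MEF. Cox5a, a matrix subunit, had 108 and 103 TPM in MEF, 124 and 114 at D3, 143 and 144 at D6, 142 and 139 at D9, and 231 and 233 in ESC. Only ESC stood well apart, at 1.06 ± 0.05 over MEF (adjusted p = 5.5e-11), which was 0.98 under RLE and DESeq2 and so short of 2-fold. Cox7c, a small membrane subunit, gave 1.34 ± 0.10 alone (adjusted p = 1.1e-08) and 1.05 ± 0.06 with the reads of its copies (adjusted p = 2.2e-10), which held 80.3% to 85.5% of the joint reads. Cox6c rose by 0.32 ± 0.05 at D9 against D6 (adjusted p = 0.00013). Cox7b ranged from 239.6 to 383 TPM, with both ESC libraries highest (0.50 ± 0.05 against MEF, adjusted p = 1.7e-07), and Cox8a from 230.5 to 314 TPM, with both MEF libraries lowest. By mean TPM, Cox5b was the highest of the complex at 581.

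Complex V had the largest nuclear share, 0.278% of reads in MEF, 0.358% at D3, 0.413% at D6, 0.399% at D9 and 0.467% in ESC. At D9 against MEF 12 of its 15 nuclear genes rose and 1 fell (backgrounds 41.7% and 33.1%), with a median of 0.28. Atp5b, the catalytic beta subunit and the nuclear gene of the complex with the highest mean TPM (1200), had 968 and 976 TPM in MEF, 1066 and 1094 at D3, 1171 and 1191 at D6, 1066 and 1069 at D9, and 1651 and 1701 in ESC. ESC were highest and the other groups close together, with ESC against D9 at 0.50 ± 0.03 (adjusted p = 1.7e-09). Atp5g1, a gene of the ring subunit c, had 80.5 and 78.9 TPM in MEF, 85.2 and 78.8 at D3, 97.5 and 106 at D6, 95.4 and 95.6 at D9, and 149.9 and 148.7 in ESC, and rose by 0.80 ± 0.05 in ESC against MEF (adjusted p = 3.5e-09). Atp5g2, a gene for the same subunit, had 91.9% to 95.1% of the joint reads on copies, and its fall of 0.54 on the log2 scale at D9 against D6 was 0.04 (adjusted p = 0.61) with those reads added. Atp5g3, the remaining gene for it, ranged from 189.7 to 261 TPM, with MEF lowest, and rose by 0.28 ± 0.04 at D3 (adjusted p = 2.3e-05). At D9 against D6, 4 of the 15 nuclear genes fell (background 18.9%), and mt-Atp6 and mt-Atp8 rose by 0.55 and 0.57.

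Atp5s and Atp5sl, a coupling factor of the ATP synthase and its relative, gave 2-fold calls in spite of low levels. Atp5s, which falls outside the rule for named genes and was chosen after its values were seen, had 2.66 and 2.27 TPM in MEF, 5.59 and 5.85 at D3, 5.31 and 5.47 at D6, 4.61 in both D9 libraries, and 3.505 and 3.49 in ESC, with MEF lowest and D3 at 1.19 ± 0.09 over MEF (adjusted p = 1.6e-08). Atp5sl, now known for its part in the assembly of complex I, had 8.18 and 8.09 TPM in MEF, 14.8 and 10.7 at D3, 16.3 and 16.7 at D6, 18.9 and 19.7 at D9, and 18.2 and 15.8 in ESC. It rose at each step to D9, by 1.37 ± 0.06 in all against MEF (adjusted p = 2.2e-11).

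In terms of where each member was highest, the genomes differed. All 13 mitochondrial genes had their highest mean CPM at D9, while the 82 nuclear genes were spread, with 9 highest in MEF, 14 at D3, 11 at D6, 23 at D9 and 25 in ESC. The lowest group was MEF for 9 of the mitochondrial and for 44 of the nuclear genes. The mitochondrial genes come from 2 long precursors and share their libraries, and so are not 13 independent measurements.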

How the data were processed

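RNA from 10 libraries was prepared with a stranded mRNA kit and sequenced in single 50-base reads, per the labels' protocols. The authors quantified transcripts with Salmon 0.8.2 and the build mm10 appears beside it, per the submitters' processing notes, and the deposited files give an estimated count and a TPM per transcript. The index, the strand setting and the treatment of reads that fit several transcripts are not given in the sources used here. Estimated counts were summed per gene over the GENCODE symbols in the transcript names and rounded to whole numbers. TPM were summed per gene as deposited and are used for levels per length, including in the plots of alternative forms as log2(TPM + 0.1).

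Differences were tested with edgeR 4.0.16 (quasi-likelihood, TMM, all 10 libraries in 1 fit, filterByExpr with a minimum count of 10) in R 4.3.3, with Benjamini-Hochberg adjustment over 20165 genes. A call is an adjusted p under 0.05, with or without a 2-fold minimum (absolute log2 fold change of 1), and SE is the log2 fold change divided by the root of the F statistic. CPM use TMM-scaled library sizes. The common biological coefficient of variation was 3.75%. Alternatives were DESeq2 1.42.0, RLE or no scaling, filters, limma 3.58.1 on log2(TPM + 1) and log2(TPM + 0.1), fits of 2 groups, a replicate block and leaving out each library. On simulated counts for D3 against MEF over 20165 genes, with 200 changed, edgeR called 91% of the changed genes and 2 unchanged genes. The data themselves gave 2950 genes higher and 2923 lower by 2-fold in that comparison. How edgeR performs with so many genes changed was not tested.

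The members, gene lists and tests were chosen with earlier results of these data known. Named with values were the 13 mitochondrial genes, a fixed panel of alternative forms, complex II, per comparison the 3 nuclear members that rose most and the 3 that fell most (at least 20 CPM in the higher group), and the highest and lowest nuclear member per complex by TPM. Near-identical copies were found with blastn 2.17.0 between GENCODE M21 transcripts. Replicates of a group differed by more than sampling noise (chi-square per degree of freedom 2.91 to 5.42), so none was an identical copy of the other. This measure cannot tell technical from biological replicates. Intervals for counting error are not given, since the replicate spread is used throughout.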

Additional observations from a re-analysis of the deposited data

How the results depend on the processing

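All values here count members past an adjusted p under 0.05 and 2-fold unless stated. With no fold minimum the counts of higher and lower members were 54 and 15 for D3 against MEF, 37 and 12 for D6 against D3, 23 and 10 for D9 against D6, 26 and 43 for ESC against D9, 64 and 13 for D9 against MEF, and 58 and 18 for ESC against MEF. Under the stricter filter of 10 CPM, which removes the low tissue forms, the lower count was 1 for D3 against MEF, 1 for D9 against MEF and 0 for ESC against MEF, D6 against D3 had 0 higher and 0 lower, and ESC against D9 had 0 higher. Without TMM the higher count was 4 for D3 against MEF and 9 for ESC against MEF, and with limma on log2(TPM + 1) it was 1 for D3 against MEF, with 1 lower for ESC against MEF. For D9 against MEF 8 members were higher under DESeq2, under RLE and with only the 2 groups fitted, compared with 13. In deposited TPM the mitochondrial sum over MEF was 1.16 at D3, 1.41 at D6, 2.07 at D9 and 1.14 in ESC (without mt-Atp8 1.135, 1.30, 2.02 and 1.18), and the nuclear sum 1.155, 1.199, 1.13 and 1.275, compared with 1.26, 1.56, 2.595 and 1.42 and with 1.30, 1.43, 1.43 and 1.55 in percent of reads. The cause of these shifts was not tested. Adding the reads of copies and leaving out mt-Atp8 were alternatives chosen after seeing the data.

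Leaving out each library in turn gave 0 to 2 members higher for D9 against D6 (mt-Co2 and mt-Nd3 without D9 replicate 2, 1 of them without either D6 replicate, both with most reads on copies) and 0 to 1 lower (Cox4i2 without D9 replicate 1), and a mitochondrial less nuclear median from -0.159 to -0.037 for ESC against MEF. For D9 against D6 that difference stayed between 0.59 and 0.681, and for ESC against D9 between -0.974 and -0.816. At D9 against MEF, mt-Nd1 lost its 2-fold call without MEF replicate 1 or D9 replicate 1 and mt-Atp6 without D9 replicate 1 (0.95). Cox6a2 lost its call for ESC against MEF without ESC replicate 1 (adjusted p = 0.072).

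With the replicate number as a block the counts were those without it, 2 and 4, 1 and 1, 0 and 0, 3 and 7, 13 and 3, and 5 and 2 in the order above, and the differences of medians were 0.022, 0.146, 0.632, -0.894, 0.881 and -0.13. Libraries with the same number did not deviate together (correlations from -0.02 to 0.022 over 10 pairs of groups). This gave no sign of pairing by number. With 2 libraries a group it cannot exclude that samples shared a culture or animal.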

Other observations

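Genes that maintain and read the mitochondrial genome were tested as a related list of 19. Against MEF 2 were higher by 2-fold at D3, 5 at D9 and 9 in ESC, with medians of 0.30, 0.71 and 0.86. All genes gave 14.6%, 24.1% and 25.5% higher, so 9 of 19 in ESC is above the background and the other counts are close to it or below. Peo1, the helicase of mitochondrial DNA, was 1.05 ± 0.06 above MEF at D3, 1.56 ± 0.06 at D9 and 1.14 ± 0.06 in ESC. Tfam, which packages that DNA and starts its transcription, was 0.67 ± 0.05, 1.16 ± 0.05 and 1.35 ± 0.05 above MEF. At D9 against D6, the step at which the mitochondrial genes rose, 5 of the 19 rose and 1 fell at any fold (backgrounds 15.7% and 18.9%), with a median of 0.07. In ESC against D9, where the mitochondrial genes fell, Tfam was 0.19 ± 0.04 higher and Peo1 was -0.42 ± 0.05. Tfam and Peo1 were named by the fixed rule for such lists.

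Among 77 genes of mitochondrial ribosomal proteins, 5 were higher by 2-fold at D9 against MEF, below the background of 24.1%. In ESC against MEF 16 were higher and 2 lower by 2-fold, below the backgrounds of 25.5% and 20.6%. At any fold 52 rose and 10 fell at D9 against MEF (backgrounds 41.7% and 33.1%). In ESC against MEF 54 rose and 9 fell (backgrounds 40.4% and 36.2%), with a median of 0.51 (all genes 0.10). How far these counts depend on scaling was not tested. Mrps31 had 1.77 ± 0.06 and Mrpl15 1.74 ± 0.04 in ESC, and Mrps6 was -1.03 ± 0.05. Of 44 assembly factors, 5 were higher and 1 lower by 2-fold in ESC against MEF, below the backgrounds of 25.5% and 20.6%. At any fold 28 of them rose and 8 fell in that comparison (backgrounds 40.4% and 36.2%), with a median of 0.27. Cox17, a copper chaperone of complex IV, was 1.06 ± 0.06, and Sco2, also a copper chaperone of complex IV, was -1.75 ± 0.09.

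A pair of relatives that the symbol rule leaves out moved further than most members. Ndufa4l2, a gene known from low oxygen, had 113 and 107 TPM in MEF, 0.12 and 0.059 at D3, 0.17 and 0.16 at D6, 1.504 and 1.37 at D9, and 13.1 and 13.2 in ESC. Cyct, the testis form of cytochrome c, had at most 0.14 TPM in every library from MEF to D9 and 25.9 and 25.4 in ESC. Both were chosen for mention after their values were seen. Mitochondrial ribosomal RNA fell at D3 against MEF (mt-Rnr2 -1.25, mt-Rnr1 -1.08), the step at which mt-Nd1 fell.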
